A study of Schizosaccharomyces pombe with 6 samples.

Results

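The noncoding RNA loci described here are those of the deposited count table whose identifier starts with SPNCRNA and carries a number above 600, with SPNCRNA.1712 left out. There are 1068 of them among 6988 loci, and 785 (73.5%) had at least 10 counts in 3 or more libraries, which is the level called detected below. The libraries hold poly(A)+ RNA of the fission yeast *Schizosaccharomyces pombe*, from 3 replicate experiments with a wild-type h- strain and 3 with an h- *siw14*∆ strain, in which a hygromycin-resistance cassette (HygMX) replaces the gene. Each genotype is a single strain, and both grew vegetatively to log phase in YES, a rich medium, at 30 °C. *siw14* codes for a pyrophosphatase that removes phosphates from inositol pyrophosphates. In normalized counts (counts scaled to the effective library size), it lay at 2208, 2487 and 2480 in the wild-type libraries and at no more than 14.2 in any *siw14*∆ library, which checks the labels. Wherever 3 values of a strain follow each other below, they are its replicates 1, 2 and 3 in that order.

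Long noncoding RNAs of fission yeast are made by RNA polymerase II, and most have no known function. Many run antisense to a protein-coding gene, and many are kept scarce in growing cells by the nuclear exosome, the ribonuclease complex with Rrp6, and by factors that deliver RNAs to it. A few act in cis: transcription of such a lncRNA across the promoter of the next gene keeps that gene down, as at the phosphate-acquisition genes *pho84* and *tgp1*, and the amount of inositol pyrophosphates affects where such transcription ends. Selection of poly(A)+ RNA measures the polyadenylated transcripts only.

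The library totals ran from 12875286 to 14583056 counts. The 1068 loci together took 0.476%, 0.549% and 0.635% of all counts in wild type and 0.670%, 0.588% and 0.615% in *siw14*∆. The ranges of both genotypes overlap, and wild-type replicate 1 was the lowest library. Between replicates the counts of the detected loci differed by more than sampling noise, with a chi-square per degree of freedom of 1.97 or more in every pair of a genotype. The median coefficient of variation of a detected locus was 24.7% in wild type and 16.2% in *siw14*∆, against 12.5% and 7.84% over all loci tested. Because these are bulk samples, fewer cells that make an RNA and less of it per cell cannot be told apart.

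Detection differed widely between classes of loci. Of the 458 noncoding RNA loci numbered up to 600, 45 (9.83%) were detected, and of 5108 protein-coding loci 4894 (95.8%). Within the set above 600, 650 loci reached 10 counts in all 6 libraries, 202 reached it in no library and 29 had no count at all. A library held between 712 (wild-type replicate 1) and 809 (wild-type replicate 3) loci with 10 counts or more. A lower requirement of 1 count in 3 libraries was met by 1014 loci and one of 50 counts by 393. At the border lay 23 loci whose third-highest count was exactly 10, with a total over the 6 libraries of 49 to 73, and 13 whose third-highest count was 9, with a total of 39 to 61. Detection by 10 counts in 3 libraries could have come from 1 genotype alone, which was the case at 3 loci, all through *siw14*∆. These were SPNCRNA.1022, SPNCRNA.1452 and SPNCRNA.720.

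Loci whose annotated span overlaps another locus were more often detected. The ASM294v3 annotation matched 1052 of the 1068 loci. Of the loci that overlap another annotated locus on the opposite strand only, 562 of 735 (76.5%) were detected, and of those with overlaps on both strands 138 of 169 (81.7%). Of those without any overlap, 59 of 112 (52.7%) were detected, and of those that overlap only a locus on the same strand 23 of 36 (63.9%). The detected loci were also longer, with a median exon length of 1429.5 bases against 885 for the others, and the part of length in detection was not tested. GC content was close, at a median of 35.7% and 35.1%. The shares were alike on the chromosomes: 73.2% on I, 75.9% on II and 74.1% on III.

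In wild type the detected loci were expressed at low levels. The median normalized count was 45.5, with quartiles of 22.2 and 98.6, and 434 of the 785 loci lay below 50. The 10 most abundant loci held 17.6% and the 100 most abundant 54.8% of all wild-type counts of the set. Levels of different loci can be compared per length only, as RPKM (counts per kilobase of exon, scaled to library size). The median RPKM was 2.44 over the 782 detected loci with an annotated length, against 31.8 over the protein-coding loci and 3.36 over the detected loci numbered up to 600.

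**Figure D1:**
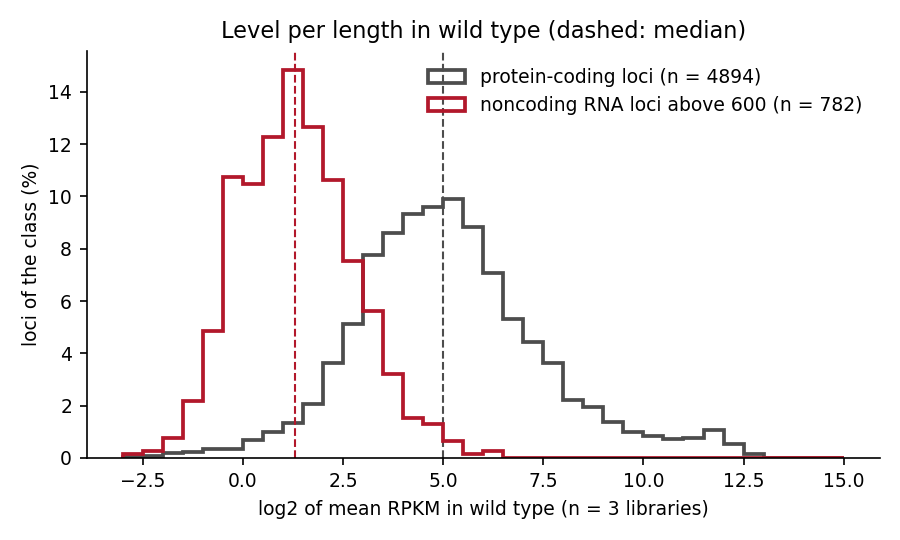
Histogram of the mean RPKM in the 3 wild-type libraries (x axis, log2 scale) as the percentage of loci in each class (y axis), with dashed lines at the class medians of 2.44 RPKM for the noncoding RNA loci above 600 and 31.8 RPKM for the protein-coding loci. The noncoding RNA loci lie to the left, and both distributions overlap.

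A few loci reached the range of the coding genes. SPNCRNA.1351 was the highest per length, with 82.0 ± 13.6 RPKM (SD, n = 3) in wild type. It lies opposite *mug2*, a gene of the meiotically upregulated set, over 85.8% of its annotated span, and that gene had 1.85 RPKM, a level 44.4 times lower. SPNCRNA.1644 had 65.5 ± 2.49 RPKM (SD, n = 3) and lies opposite *spo4*, which codes for a kinase needed in meiosis. SPNCRNA.1158 had 51.7 ± 2.62 RPKM (SD, n = 3), and the gene opposite to it, *gnr1* for a G protein beta subunit, had 0.652 RPKM. SPNCRNA.880 followed with 42.6 ± 3.04 RPKM (SD, n = 3), opposite *bgs2* for the glucan synthase of the spore wall. SPNCRNA.1626, opposite part of the MADS-box gene *mbx2*, had 40.1 ± 9.61 RPKM (SD, n = 3), and SPNCRNA.979 had 37.6 ± 4.81 (SD, n = 3). The ranges of SPNCRNA.880, SPNCRNA.1626 and SPNCRNA.979 overlap within their SD, so their order is not resolved. Nor is that of SPNCRNA.1158 and SPNCRNA.1626, whose ranges also overlap within their SD. On the same strand, SPNCRNA.1351 overlaps SPNCRNA.1352 and SPNCRNA.1158 overlaps SPNCRNA.1157.

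Against this background of low counts, few of the detected loci were called as changed in *siw14*∆. By the quasi-likelihood test of edgeR, with p-values adjusted by Benjamini and Hochberg over the 5794 loci tested and calls made up to an adjusted p of 0.05, 25 of the 785 loci (3.18%) were higher in *siw14*∆ and 14 (1.78%) were lower. Of all loci tested, 16.7% were called higher and 4.99% lower. The median log2 fold change was 0.08 over the 785 loci and 0.01 over all loci tested. With library totals alone as the scale, the median of all loci moved to 0.18, that of the 785 loci to 0.25, and the calls to 45 higher and 0 lower. In that scale 11 loci were lower at an unadjusted p under 0.05. With DESeq2's size factors in edgeR the calls were 22 higher and 21 lower. When a trend of each library over abundance was taken out, the median of the 785 loci turned to −0.15 and edgeR called 0 in either direction, with 30 higher and 147 lower at an unadjusted p under 0.05. Over the whole table it then called 0 higher and 1 lower. Removal of a GC trend gave a median of −0.08, with 27 called higher and 42 lower.

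The calls depended on the libraries. Without wild-type replicate 2, 50 loci were called higher and 42 lower. Without wild-type replicate 1 there were 17 and 1, the latter SPNCRNA.1060, and without wild-type replicate 3 there were 20 and 0. Without *siw14*∆ replicate 1, edgeR called 5 higher (SPNCRNA.1118, SPNCRNA.1279, SPNCRNA.1560, SPNCRNA.674 and SPNCRNA.926) and 0 lower. Without *siw14*∆ replicate 2 or 3 it called 0 in either direction, and over the whole table it then called 0 higher and 1 lower. At an unadjusted p under 0.05 edgeR gave 83 higher and 41 lower with all libraries, and 53 higher and 30 lower without *siw14*∆ replicate 2, 44 and 28 without replicate 3. Lower at that level were 17 loci without wild-type replicate 3 and 40 without *siw14*∆ replicate 1. None of the 39 called loci changed sign in any of these fits or under any other alternative run. They were called from these same libraries, and at 37 of them the genotypes did not overlap. A reversal by leaving out a library was therefore hardly possible, and the kept signs are no independent support.

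Without reference to a model, all 3 *siw14*∆ libraries lay above all 3 wild-type libraries at 106 loci (13.5%) and below them at 55 (7.01%). Over all loci tested these shares were 27.6% and 19.1%. The split depended on the scale, with 167 above and 19 below by library totals only, 96 and 66 by DESeq2's size factors, 79 and 106 with the GC trend taken out and 56 and 140 with the abundance trend taken out. The median standard error of the log2 fold change was 0.29 for the 785 loci and 0.13 for all loci tested. At 100 to 200 normalized counts, where it was 0.19 for these loci and for protein-coding loci, all *siw14*∆ libraries lay above wild type at 18.3% and 63.1% of them. The 95% interval of the fold change lay wholly within 2-fold at 426 loci (54.3%), against 81.5% of all loci. Among the 215 loci with a mean of at least 100 normalized counts in either genotype, it did so at 179 (83.3%).

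The loci called higher in *siw14*∆ rose by a log2 fold change of 0.47 to 1.78, with a median of 0.79. Those with at least 100 normalized counts in *siw14*∆ and the largest fold change are given first. SPNCRNA.1087, antisense to *gto1* for an alpha-glucosidase over 71.1% of its span, had 54.8, 93.8 and 78.3 normalized counts in wild type, and *siw14*∆ had 126, 150.3 and 136. The genotypes did not overlap, and the log2 fold change was 0.86 (standard error 0.22, adjusted p = 0.0270 by edgeR). Its span also meets SPNCRNA.30 on the same strand, where counts of both loci could be shared.

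SPNCRNA.1371 is antisense to *rsn1*, annotated as a calcium transporter, over 96.2% of its span. It had 51.5, 71.1 and 58.4 normalized counts in wild type and 100.3, 128 and 95.2 in *siw14*∆ (log2 fold change 0.84, standard error 0.22, adjusted p = 0.0289 by edgeR). Every *siw14*∆ library was above every wild-type library, and SPNCRNA.1370 overlaps it on the same strand. SPNCRNA.611, annotated as a possible alternative UTR and overlapped by SPAC11D3.17 on the same strand, had the smallest p of the loci numbered below 1000. Its normalized counts were 73.5, 113 and 82.4 in wild type and 148, 172 and 159 in *siw14*∆ (log2 fold change 0.83, standard error 0.20, adjusted p = 0.0251 by edgeR). The gene opposite, annotated as a transporter of carboxylic acids, had a log2 fold change of −0.48 that did not pass (adjusted p = 0.113 by edgeR).

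SPNCRNA.674 runs opposite *byr1*, the MAP kinase kinase of the mating pathway, and had 63.6, 82.4 and 57.4 normalized counts in wild type and 89.3, 137 and 126 in *siw14*∆. The log2 fold change was 0.79 with a standard error of 0.23 (adjusted p = 0.0374 by edgeR), and *siw14*∆ replicate 1 lay only just above wild-type replicate 2. SPNCRNA.1227 runs opposite *ste6*, the exchange factor that activates Ras in mating. It had 54.8, 71.1 and 64.7 normalized counts in wild type and 116, 106 and 93.1 in *siw14*∆ (log2 fold change 0.72, adjusted p = 0.0338 by edgeR). Neither coding gene was called, with log2 fold changes of 0.01 for *byr1* and −0.00437 for *ste6*.

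SPNCRNA.833 had 53.7, 77.3 and 73.0 normalized counts in wild type and 109.5, 115 and 117 in *siw14*∆. SPNCRNA.1292 had 83.3, 116 and 69.9 in wild type and 139.9, 141 and 157 in *siw14*∆, while the methyltransferase gene opposite to it fell by 1.01 on the log2 scale (adjusted p = 0.0483 by edgeR). SPNCRNA.1279, opposite the oligopeptide transporter gene *opt3*, had 126, 141 and 141 in wild type and 179, 226 and 241 in *siw14*∆. All of these had genotypes that did not overlap, with log2 fold changes of 0.74, 0.70 and 0.66. SPNCRNA.1118, the locus with the smallest p among those numbered 1000 or more, lies opposite the glucose and fructose transporter gene *ght6*. Its normalized counts were 380.4, 448 and 363 in wild type and 501, 638 and 642 in *siw14*∆, a log2 rise of 0.58 with a standard error of 0.14 (adjusted p = 0.0255 by edgeR).

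**Figure D2:**
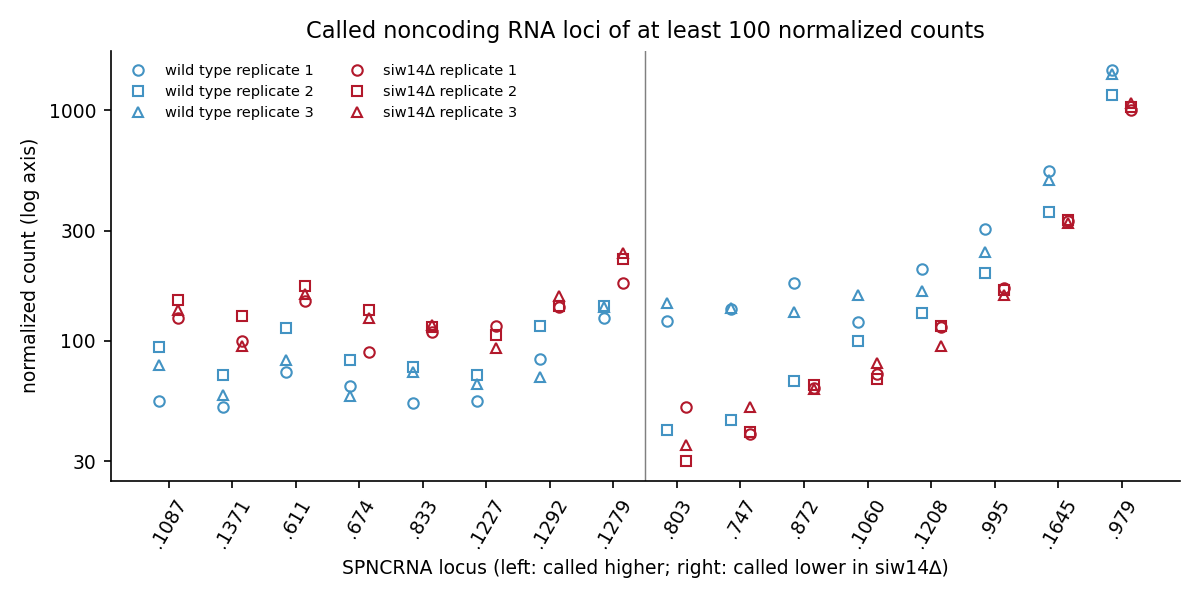
Normalized counts (y axis, log axis) of the 8 noncoding RNA loci called higher and the 8 called lower with the largest fold change at 100 normalized counts or more (x axis), each open symbol being a library of wild type (blue) or *siw14*∆ (red). At SPNCRNA.803, SPNCRNA.747 and SPNCRNA.872 wild-type replicate 2 (blue square) sits beside the *siw14*∆ libraries, with 41.2, 45.3 and 67.0 normalized counts.

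The 7 called loci with rises of 2-fold or more all had fewer than 100 normalized counts in *siw14*∆ and are named after their values were seen. The largest was at SPNCRNA.1452, wholly opposite *mug124*, with 6, 2 and 5 raw counts in wild type and 16, 23 and 12 in *siw14*∆ (log2 fold change 1.78, 95% interval 0.70 to 2.85, adjusted p = 0.0331 by edgeR). SPNCRNA.720 had 2, 3 and 6 raw counts in wild type and 20, 11 and 10 in *siw14*∆ (log2 fold change 1.71, adjusted p = 0.0449 by edgeR). Both were detected through *siw14*∆ alone, so that a difference was a condition of their being tested. The others were SPNCRNA.1244 (1.35), SPNCRNA.926 (1.34), SPNCRNA.1560 (1.22), SPNCRNA.1092 (1.06) and SPNCRNA.1169 (1.05 on the log2 scale). Of these, SPNCRNA.1560 was the most abundant, with 23.0, 47.4 and 38.6 normalized counts in wild type and 62.6, 104 and 89.1 in *siw14*∆.

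The 14 loci called lower had log2 fold changes of −1.39 to −0.40, with a median of −0.82. To count a gene as changed, the study asked for a call at 0.05, a change of 2-fold or more and an average of 100 or more normalized counts in the strain with more of it. Of the 785 loci 3 met these criteria for a fall and 0 for a rise, against 0.207% and 0.104% of all loci tested. These counts came from edgeR, and SPNCRNA.872 lay at the 2-fold edge (log2 fold change −1.0003). DESeq2 also gave 3 and 0, limma-voom gave 0 and 0, and edgeR with library totals only gave 0 and 2. It gave 2 and 0 with a filter of 1 count in any library, and likewise with the replicate number as a block. SPNCRNA.872 then fell short of 2-fold, with −0.996 and −0.916. With the abundance trend taken out no locus met them. Without wild-type replicate 2, 7 loci met them for a fall and 2 for a rise. Without wild-type replicate 3 it was 0 and 2. Without wild-type replicate 1 or any *siw14*∆ replicate no locus met them.

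SPNCRNA.803 lies wholly opposite *hrp1*, which codes for a chromatin remodeler and CENP-A chaperone. Wild type had 122, 41.2 and 146 normalized counts of it and *siw14*∆ had 51.5, 30.1 and 35.4. Wild-type replicate 2 lay between the *siw14*∆ replicates, so the genotypes overlapped. The log2 fold change was −1.39 (95% interval −2.29 to −0.50, adjusted p = 0.0374 by edgeR). *hrp1* itself rose by 0.61 on the log2 scale (standard error 0.14, adjusted p = 0.0237 by edgeR), with 792, 1170 and 898 normalized counts in wild type and 1302, 1580 and 1494 in *siw14*∆.

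SPNCRNA.747, opposite the sterol transfer gene *osh3*, had 137, 45.3 and 139 normalized counts in wild type and 39.6, 40.1 and 51.6 in *siw14*∆ (log2 fold change −1.29, standard error 0.37, adjusted p = 0.0362 by edgeR). Here too wild-type replicate 2 was inside the *siw14*∆ range. *osh3* had a log2 fold change of 0.49 that did not pass the threshold (adjusted p = 0.0650 by edgeR), although it did with DESeq2, the replicate block, library totals only, with the GC trend taken out and without wild-type replicate 2 (0.76). SPNCRNA.872 had 179, 67.0 and 134 normalized counts in wild type and 62.6, 64.7 and 61.7 in *siw14*∆ (log2 fold change −1.0, standard error 0.31, adjusted p = 0.0418 by edgeR). The *siw14*∆ libraries were below all wild-type libraries, the nearest being wild-type replicate 2. SPNCRNA.873 overlaps this locus on the same strand. The gene opposite, *eta2* for a termination factor of RNA polymerase I, had 42.8, 40.2 and 36.5 normalized counts in wild type and 34.0, 44.6 and 63.8 in *siw14*∆. Its log2 fold change of 0.25 did not pass (adjusted p = 0.531 by edgeR).

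The 5 other loci called lower with at least 100 normalized counts in wild type were less far apart. SPNCRNA.1060, opposite *ctf8* of a replication factor C complex, had 121, 99.9 and 158 in wild type and 71.8, 68.3 and 80.0 in *siw14*∆ (log2 fold change −0.78, adjusted p = 0.0323 by edgeR). *ctf8* had a log2 fold change of 0.43 that did not pass (adjusted p = 0.218 by edgeR). SPNCRNA.1208 had 204, 132 and 165 in wild type and 115, 116 and 95.2 in *siw14*∆ (log2 fold change −0.62), and *snp27*, the splicing gene opposite, rose by 0.68 on the log2 scale (adjusted p = 0.0274 by edgeR). SPNCRNA.995 and SPNCRNA.1645, both annotated as possible alternative UTRs, had log2 fold changes of −0.59 and −0.50. On the same strand, SPNCRNA.1208 overlaps SPNCRNA.1207 and SPNCRNA.995 overlaps SPAC27D7.11c. SPNCRNA.979, the most abundant called locus, had 1489, 1163 and 1433 normalized counts in wild type and 999.4, 1027 and 1076 in *siw14*∆, a log2 difference of −0.40 with a standard error of 0.11 (adjusted p = 0.0317 by edgeR). In all of these the *siw14*∆ libraries lay below the wild-type libraries.

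Wild-type replicate 2 was the lowest wild-type library at all 14 loci called lower, and at 10 of them it was closer to the average of *siw14*∆ than to that of its fellow wild-type libraries. It was also the lowest wild-type library at 5 of 7 listed genes of starvation and meiotic entry, the exceptions being *mei3* and *ste4*. These 7 genes were listed because an earlier analysis of these data found a wild-type library nearer to *siw14*∆ at such genes. Their values are therefore no independent evidence that a library stands apart. *mei2*, a central regulator of meiosis, had 1522, 387 and 1434 normalized counts in wild type against 398, 349 and 360.4 in *siw14*∆. By edgeR 4 of the 7 genes were called lower (*ste11*, *mei2*, *hsp9* and *spk1*), against 4.99% of all loci tested, and 0 higher (1, *ste4*, at an unadjusted p under 0.05). None was called with wild-type replicate 1 or any *siw14*∆ replicate left out or with the abundance trend taken out, 1 was without wild-type replicate 3, and 2 were with library totals only. At the 25 loci called higher, wild-type replicate 2 was closer to *siw14*∆ at only 2. Wild-type replicate 1 was the lowest wild-type library at 17 of them. Over the 104 noncoding RNA loci of 100 to 200 normalized counts, the median log2 deviation from the locus mean was lowest in that library as well. It was −0.19, against −0.02 and 0.08 in wild-type replicates 2 and 3. How often each wild-type library was the lowest over all detected loci is not given here. The part of wild-type replicates 1 and 2 in the calls beyond the fits without them was not tested.

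From 50 to 500 normalized counts, the noncoding RNA loci differed from protein-coding loci of the same abundance. Of 104 loci with a mean of 100 to 200 normalized counts, 6.73% were called higher and the median log2 fold change was 0.09. Of 407 protein-coding loci in that range, 41.3% were called higher and the median was 0.53, although the median standard errors were alike at 0.19 for both. At 200 to 500 normalized counts the medians were −0.01 over 67 noncoding RNA loci and 0.39 over 1023 protein-coding loci, and at 50 to 100 they were 0.11 over 184 and 0.33 over 167. Above 500, with 24 noncoding RNA loci, both medians were below 0, at −0.09 and −0.12. Below 50 the classes were closer. At 20 to 50, 2.05% of 244 noncoding RNA loci and 3.09% of 97 protein-coding loci were called higher, with medians of 0.14 and 0.22. Below 20 it was 1.23% of 162 and 1.47% of 68, with medians of 0.10 and 0.27. This is a description of loci, which are not independent replicates, and no test was made of it.

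**Figure D3:**
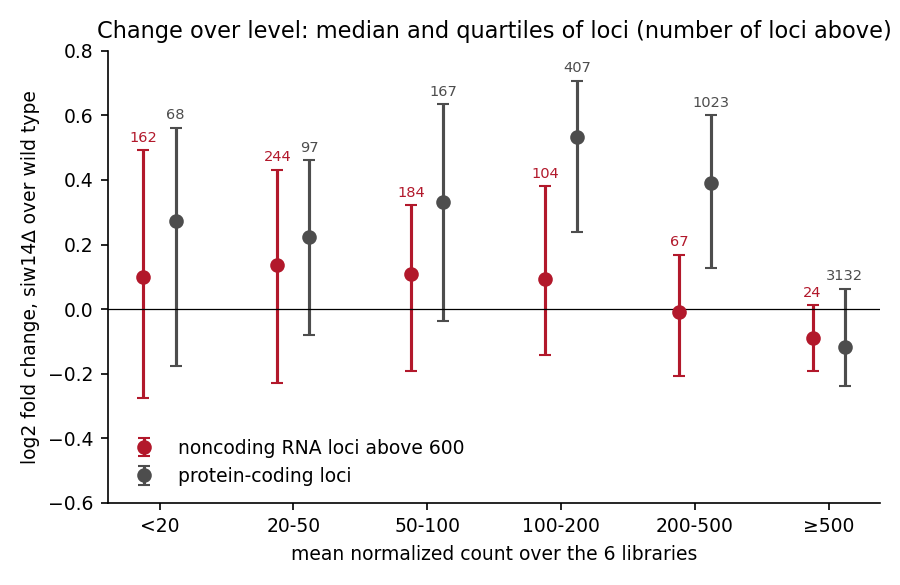
Median log2 fold change in *siw14*∆ against wild type (y axis; points, with bars from the lower to the upper quartile of loci) in 6 ranges of mean normalized count (x axis), with the number of loci above each bar. From 100 to 200 normalized counts the protein-coding loci reach a median of 0.53, and the noncoding RNA loci above 600 stay at 0.09.

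The same was seen library by library. At 100 to 200 normalized counts, the median deviation of a protein-coding locus from its own mean over the 6 libraries (log2) was −0.50, −0.12 and −0.15 in wild type and 0.23, 0.29 and 0.25 in *siw14*∆. The genotypes did not overlap. For the noncoding RNA loci it was −0.19, −0.02 and 0.08 in wild type and 0.07, 0.02 and 0.03 in *siw14*∆, and wild-type replicate 3 was above every *siw14*∆ library.

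The difference of 0.44 between the protein-coding and the noncoding median in that range was 0.37 to 0.50 with any library left out. It was 0.39 after removal of the GC trend and 0.45 after removal of the abundance trend. The latter shifts loci of like abundance alike, so it could change a difference within this range only little. The median exon length was 1803.5 bases for these noncoding RNA loci and 1235 for the protein-coding loci, and the median GC content 36.5% and 35.6%. Within 4 classes of exon length, chosen after seeing the data, the difference was 0.49 (500 to 1000 bases), 0.54 (1000 to 1500), 0.62 (1500 to 2000) and 0.42 (2000 to 3000). These classes held 12, 23, 27 and 22 noncoding RNA loci.

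Many of these loci can be read together with the gene on the other strand. A tested protein-coding gene overlapped 580 of the detected loci on the opposite strand, with 569 such genes in all. The RPKM of the noncoding RNA was a median of 0.151 times that of its coding gene, and it was the higher of the pair in 94 cases. The libraries are stranded, but whether the counting used strand is not stated in the sources used here. Loci wholly opposite a coding gene were detected in 88 of 127 cases and had a median of 2.37 RPKM, against 2.61 for the detected loci with no coding gene opposite. The levels of both partners in wild type went in opposite directions (Spearman −0.237 over 580 pairs, which share the same libraries).

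The changes in *siw14*∆ of both partners also tended to differ in sign. Across the 580 pairs the log2 fold changes had a Pearson coefficient of −0.218 and a Spearman coefficient of −0.259, and 351 pairs (60.5%) had opposite signs. The coefficient was also negative with the abundance trend taken out (Spearman −0.283) and with the GC trend taken out (−0.338). It was −0.195 over the 138 pairs that overlap over less than 50% of the noncoding span, −0.241 over 354 with 50% to under 100%, and −0.298 over the 88 that overlap wholly. The pairs share libraries and normalization and are not independent.

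Between 2 libraries of the same genotype the relation was weaker and of either sign. The Spearman coefficients of the log2 ratios over the same pairs were −0.03 (replicates 1 and 2), 0.19 (1 and 3) and −0.14 (2 and 3) in wild type. In *siw14*∆ they were −0.0034, 0.01 and −0.08. Each of these 6 coefficients was closer to 0 than that between the genotypes. The former rest on single libraries, whose greater sampling noise brings a coefficient closer to 0, and the latter on all libraries. The comparison therefore cannot decide whether the relation between the genotypes exceeds that between replicates.

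**Figure D4:**
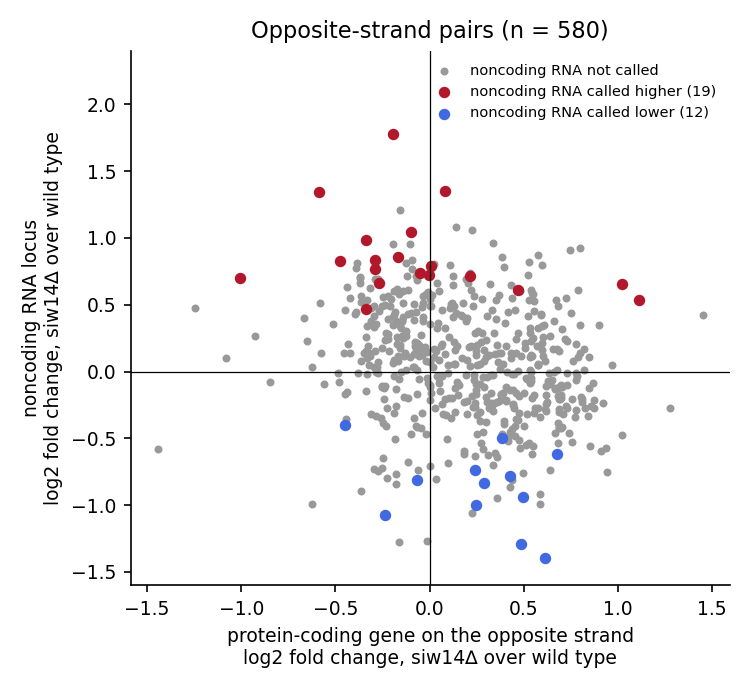
Log2 fold change in *siw14*∆ against wild type of a noncoding RNA locus (y axis) against that of the protein-coding gene on the opposite strand (x axis) for 580 pairs, with the 19 pairs whose noncoding RNA was called higher in red and the 12 called lower in blue. The cloud falls from upper left to lower right, with a Spearman coefficient of −0.259.

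Of the coding partners, 26.4% were called higher and 3.69% lower. Opposite a coding gene called higher, the 152 noncoding RNA loci had a median log2 fold change of −0.13, and 97 (63.8%) lay below 0. Opposite an uncalled coding gene, the 407 loci had a median of 0.14, and 157 (38.6%) lay below 0. The 21 loci opposite a coding gene called lower had a median of 0.14. The loci opposite a higher gene had a median GC content of 35.5% against 36.3% opposite an uncalled gene, and the part of GC content in this was not tested beyond the fit above. Both members were called in 7 pairs. Opposite a locus called higher, 1 partner was called higher and 2 lower. Opposite a locus called lower, 3 partners were called higher and 1 lower. Of the 19 called-higher loci with a partner, 13 had a partner of the opposite sign, and so did 9 of the 12 called lower.

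Not all called pairs differed in sign, and the pair with both members called lower is not named here. The pair with both called higher was SPNCRNA.1096 with the uncharacterized gene *SPCC1884.01*, named after its values were seen. The noncoding RNA rose by 0.65 on the log2 scale (adjusted p = 0.0391 by edgeR) and the coding gene by 1.02 (adjusted p = 0.0319 by edgeR). SPNCRNA.926, opposite *mug182* for an epimerase, rose by 1.34 while the coding gene fell by 0.59 on the log2 scale (adjusted p = 0.0476 by edgeR). SPNCRNA.1525, wholly opposite the cohesin gene *psm1*, fell by 0.94, and *psm1* rose by 0.50 (adjusted p = 0.0471 by edgeR).

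The median change differed between kinds of annotated overlap, which was not tested. Loci with no overlap had a median log2 fold change of 0.23 (59 loci), and those that overlap on the opposite strand only had 0.12 (562 loci). With overlaps on both strands the median was −0.06 (138 loci), and with one on the same strand only it was −0.19 (23 loci). The 157 detected loci annotated as possible alternative UTRs had a median of −0.06, with 2 called higher and 3 lower. The 612 annotated as noncoding RNA without a further description had 0.12, with 23 higher and 11 lower. A same-strand protein-coding locus overlapped 106 of the detected loci, and the log2 fold changes of these pairs had a Spearman coefficient of 0.139. Of these 106 pairs 50 had opposite signs. Of the 82 loci with no locus on the opposite strand, 1 was called higher (SPNCRNA.1092) and 1 lower (SPNCRNA.1666).

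Loci that carry a gene name of their own showed no called change with all libraries and the TMM factors of edgeR, which scale by the typical locus and were used throughout unless another scale is named. At the phosphate-acquisition genes, *prt2* (SPNCRNA.9001), annotated as a repressor of *pho84* in cis, had 317, 279 and 297 normalized counts in wild type against 264, 269 and 291 in *siw14*∆. The genotypes overlapped, with a log2 fold change of −0.12 (95% interval −0.40 to 0.16, adjusted p = 0.508 by edgeR). *nc-tgp1* (SPNCRNA.1698), the interfering RNA upstream of *tgp1*, had 191, 179 and 212 in wild type and 162, 143 and 182 in *siw14*∆. Its log2 fold change was −0.26 (95% interval −0.61 to 0.09, adjusted p = 0.241 by edgeR). With the GC trend taken out it was −0.47 and passed (adjusted p = 0.0371 by edgeR), the only one of the alternatives run in which it did, with adjusted p-values of up to 0.790 in the others. Both spans overlap the gene that they regulate on the same strand, so counts in the overlap could belong to either.

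SPNCRNA.1343, annotated as the nonfunctional lncRNA that diverges from *nc-tgp1*, had 205, 234 and 265 normalized counts in wild type and 284, 297 and 302 in *siw14*∆. The *siw14*∆ libraries were all above wild type, but the log2 fold change of 0.33 did not pass after adjustment (95% interval 0.02 to 0.63, adjusted p = 0.106 by edgeR). With the TMM factors the intervals of both repressing lncRNAs exclude a 2-fold change in either direction.

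*nam1* (SPNCRNA.1459), annotated as a repressor of the mating kinase gene *byr2* in cis, had 197, 205 and 309 normalized counts in wild type and 234, 198 and 198 in *siw14*∆. *nam3* (SPNCRNA.1696) had 29.6, 38.1 and 74.1 in wild type and 66.3, 31.0 and 57.7 in *siw14*∆, which leaves a 95% interval of −0.71 to 0.95. *meu16* (SPNCRNA.928), antisense to *mde6* over 97.8% of its span, had 163, 232 and 195 in wild type and 256, 225 and 202 in *siw14*∆. In each of these the genotypes overlapped. The log2 fold changes were −0.18, 0.12 and 0.21.

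The remaining named loci were scarce. *fbp1-ot3* (SPNCRNA.1325), transcribed upstream of the glucose-repressed gene *fbp1*, had 46.0, 50.5 and 27.1 normalized counts in wild type and 31.3, 31.9 and 44.5 in *siw14*∆. Its companion *fbp1-ot2* (SPNCRNA.1326) had 0 counts in every library. *prl9* (SPNCRNA.1519) had 12.1, 13.4 and 14.6 normalized counts in wild type and 11.0, 9.11 and 6.07 in *siw14*∆, with a 95% interval of the log2 fold change of −1.46 to 0.27. The snoRNA host transcript *snoZ* (SPNCRNA.659) and *cti6-antisense-1* (SPNCRNA.1365) had 16.9 ± 1.27 and 11.7 ± 3.23 (SD, n = 3) in wild type, and intervals of −0.70 to 0.82 and −0.71 to 1.02. *prl6*, *prl20*, *prl38* and *aal1* were not detected, with totals of 0, 3, 28 and 1 counts over the 6 libraries.

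The precision of a fold change spanned a wide range. It was best at SPNCRNA.1644, with 2356, 2349 and 2511 normalized counts in wild type and 2334, 2166 and 2292 in *siw14*∆ and a 95% interval of −0.27 to 0.09. SPNCRNA.1158 was next, with an interval of −0.45 to −0.07 (log2 fold change −0.26, adjusted p = 0.0529 by edgeR). It passed with DESeq2's size factors in edgeR, with DESeq2, among loci with 10 counts in all 6 libraries and with the GC trend taken out (log2 fold change −0.47), and its adjusted p ran from 0.0202 to 0.555 over the alternatives. The widest intervals were those of SPNCRNA.774 (−0.80 to 2.70) and SPNCRNA.1251 (−1.19 to 2.04). SPNCRNA.774 had 2.19, 0.00 and 15.7 normalized counts in wild type and 16.6, 8.20 and 10.1 in *siw14*∆, and no change short of severalfold was detectable at this depth. Without wild-type replicate 3 its log2 fold change was 3.35 (adjusted p = 0.0440 by edgeR, against 0.114 to 0.683 under the other alternatives that gave one).

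Genes whose products degrade, terminate or silence noncoding RNAs were measured in the same libraries. Of the 49 genes listed, all tested, 20 (40.8%) were called higher in *siw14*∆ and 1 lower, with a median log2 fold change of 0.38. Over all loci tested these shares were 16.7% and 4.99%, and among protein-coding loci 42.2% were called higher at 200 to 500 normalized counts and 9.67% above 500. *rrp6*, the exosome nuclease, had 428, 652 and 542 normalized counts in wild type and 879.8, 1086 and 906 in *siw14*∆ (log2 fold change 0.82, adjusted p = 0.0235 by edgeR). The exosome subunit genes *csl4* and *rrp4* rose by 0.56 and 0.51, and *red5*, which acts with the exosome in the elimination of meiotic RNAs, by 0.63 on the log2 scale. Their genotypes did not overlap. The gene called lower was *pht1*, for the histone variant H2A.Z (−0.31). The core nuclease gene *dis3* had a log2 fold change of 0.08, *mmi1* −0.15, *dcr1* −0.14 and *ago1* −0.24, none of which passed. The list was chosen with earlier results of these data known, and its wild-type normalized counts had a median of 597 and quartiles of 343 and 1407. The calls fell to 10 without wild-type replicate 3, to 8 without *siw14*∆ replicate 1, and to 0 without *siw14*∆ replicate 2 or 3 and after removal of the abundance trend.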

How the data were processed

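Poly(A)+ RNA was measured in 3 wild-type and 3 *siw14*∆ libraries. The authors prepared stranded paired-end libraries, aligned them with HISAT2 2.1.0 (build ASM294v2) and counted exonic reads with HTSeq 0.10.0, whose strand and overlap settings were not found in the sources used here. The deposited counts are raw and not normalized. A further 5 lines without a name, filled only in the *siw14*∆ columns (35.8%, 31.6% and 34.7% of their counts), were left out, as was the authors' table of DESeq2 fold changes and p-values.

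Loci with at least 10 counts in 3 or more libraries entered 1 fit of edgeR 4.0.16 (R 4.3.3; TMM factors 0.865 to 1.11, glmQLFit and glmQLFTest, genotype only), with Benjamini-Hochberg adjustment over all of them. Standard errors are the log2 fold change over the square root of F, and 95% intervals use the t quantile. The script was tested on simulated data. DESeq2 1.42.0, limma-voom (limma 3.58.1), other scalings, filters and thresholds, loess trends (span 0.3), a replicate block and the removal of each library were the alternatives.

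The ASM294v3 annotation, which matched 6839 of 6988 loci, gave names, exon lengths, GC content and overlaps. The authors used another build, hence no coordinates or sequences are printed. The loci, the lists and the rule for named loci were chosen with earlier results of these data known. By that rule the text names *siw14*, called loci of largest fold at 100 normalized counts (8 in each direction), those past the study criteria, the 6 highest per length, the smallest p of each range of numbers, loci with names of their own, the narrowest and widest intervals, 4 opposite coding genes (*hrp1*, *osh3*, *eta2* and *ctf8*) and 4 decay genes. Other opposite coding genes, listed genes and loci are given outside this rule.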

Additional observations from a re-analysis of the deposited data

How the results depend on the processing

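The counts of the noncoding RNA loci above 600 depended on the settings, and where not stated the cause was not tested. With library totals only, 45 were called higher and 0 lower, the median log2 fold change was 0.25 and 2 starvation genes were called. With the abundance trend taken out, 0 were called in either direction, 0 met the study criteria, 0 decay and 0 starvation genes were called, and the median was −0.15; edgeR then gave 30 loci higher and 147 lower at an unadjusted p under 0.05. At an adjusted p of 0.01 all these counts were 0. The calls lower were 25 with DESeq2, 8 with limma-voom and 42 with the GC trend taken out. Past the study criteria were 0 loci by limma-voom, and by edgeR 12 with no minimum level and 5 with a minimum of 50. Of the loci without a locus on the opposite strand, 82 in number, 1 was called higher and 1 lower, 0 met the criteria and 13 did not overlap between genotypes. With each library left out, calls higher ran from 0 to 50, calls lower from 0 to 42, loci past the criteria from 0 to 9, loci without overlap from 194 to 310, the median from 0.00 to 0.23, decay genes called from 0 to 27 and starvation genes from 0 to 4. A requirement of 50 counts in 3 libraries left 393 loci detected, and the wild-type median of 45.5 normalized counts was 2.44 as RPKM. With the replicate number as a block, 21 were called higher and 13 lower. The labels do not say whether samples of the same number belong together. The same-numbered libraries of both genotypes deviated with correlations of −0.254, 0.162 and −0.164, which cannot settle it. Of the 17 named loci that were called, none reversed under any alternative run, which their selection by a call on these same libraries made likely. Reversals were all at uncalled loci. With library totals only, SPNCRNA.1644 had 0.090 and SPNCRNA.9001 had 0.062. SPNCRNA.1251 had −0.046 with limma-voom. With the abundance trend taken out, SPNCRNA.1644 had 0.046, SPNCRNA.659 −0.036, SPNCRNA.928 −0.17 and SPNCRNA.1696 −0.063, and with the GC trend taken out SPNCRNA.659 had −0.25, SPNCRNA.1365 −0.18 and SPNCRNA.1696 −0.15. With each library left out, the log2 fold change ran from −0.11 to 0.64 at SPNCRNA.1696, from −0.37 to 0.011 at SPNCRNA.1626, from −0.27 to 0.10 at SPNCRNA.1459, from −0.84 to 1.13 at SPNCRNA.1251, from −0.22 to 0.19 at SPNCRNA.659, from −0.024 to 0.41 at SPNCRNA.1365 and from −0.017 to 0.43 at SPAC31G5.10. Uncalled named loci that passed under an alternative were SPNCRNA.1351 (DESeq2, the replicate block, the GC trend and without wild-type replicate 2) and SPNCRNA.1644 (the GC trend, −0.26), besides those given with their values in the report. Depth limits the fold changes, since 434 of the 785 loci had fewer than 50 normalized counts in wild type and each genotype has 3 libraries.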
